A study of Mus musculus with 12 samples.

Results

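Gpnmb, Spp1, Igf1, Lgals3 and Hpse are genes of the damage-associated state of microglia that had few or no reads in control mice and more in mice with disease. They were chosen by symbol, with their levels in control libraries already known, and the 5 genes are 5 of 48526 gene IDs counted and 5 of the 12545 genes with enough reads to be tested. RNA was sequenced from spinal cord microglia of the mouse strain Biozzi ABH, in which experimental autoimmune encephalomyelitis (EAE, an induced immune attack on myelin) runs a relapsing and then a lasting course. The 4 groups of 3 mice were controls without the disease and mice with chronic-relapsing EAE in the acute phase, in remission and in the chronic phase. The cells were sorted as CD11b-positive, CD45-intermediate and Ly-6C-negative. The labels used here give no age, sex, day of disease or mode of induction, and they do not say what the control mice received.

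Microglia are the resident macrophages of the central nervous system. When myelin or neurons are damaged, some of them lower the genes of their resting state and raise a set that includes secreted factors, lectins, lipid-handling proteins and lysosomal proteins. Igf1 encodes insulin-like growth factor 1, a secreted ligand that supports oligodendrocytes and myelination. Spp1 encodes osteopontin, a secreted phosphoprotein that binds integrins and CD44. Lgals3 encodes galectin-3, a lectin that binds galactose-containing sugars outside the cell and damaged lysosomes inside it. Gpnmb encodes a transmembrane glycoprotein of lysosomes and melanosomes, and Hpse encodes heparanase, the enzyme that cleaves heparan sulfate chains. Monocyte-derived macrophages can express all of these genes too, so their reads are not specific to microglia.

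The genes fell into 3 patterns across the phases. Lgals3 was highest in the acute phase and far lower afterwards. Igf1 and Spp1 were low in the acute phase and high in remission and the chronic phase. Gpnmb and Hpse were already present in the acute phase, Gpnmb with its highest mean in the chronic phase and Hpse at similar levels in all phases. Levels below are CPM, read counts scaled to a common library size, and a gene counts as changed where edgeR's quasi-likelihood test gave a p below 0.05 after adjustment over the 12545 genes.

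The description "nearly absent in controls" held for 4 of the genes and less well for Spp1. Over the 3 control libraries together, Hpse had 0 reads, Igf1 had 1, Gpnmb had 3 and Lgals3 had 10, while Spp1 had 43. A count of 0 allows up to 0.173 CPM for Hpse in the control group (3 counts over the group). Igf1 was also close to absent in the acute phase, with 7 reads over the 3 libraries. Because the genes were picked for their low control level, the ratios to control given below are descriptions without a test, and the tests concern differences between disease phases. For all 5 genes, every disease library lay above every control library in CPM. For Igf1 in the acute phase this rests on single reads. Acute replicate 2 and control replicate 1 had 1 read each, at 0.266 and 0.142 CPM, and differ by library scaling alone. Of all tested genes, 30.0% in acute, 14.4% in remission and 16.5% in chronic lay above every control library in this way. Nothing is read from the count of 5, since the choice of genes used it.

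Library totals lay between 3992885 and 5712376 counts. The 6 most counted features took 48.3 to 64.1% of a library and mitochondrially encoded genes 1.92 to 5.74%, which left 1266782 to 2496096 counts to measure other genes. The acute libraries stood apart: their mitochondrial share was 5.17 to 5.74% against 1.92 to 4.36% in all others, and their TMM scaling factors were 0.812 to 0.859 against 0.873 to 1.41. The part of these in the contrasts with the acute phase was not tested. The sorted cells carried the genes of microglia: the 14 homeostatic microglia genes listed (among them P2ry12, Tmem119 and Sall1) summed to 10892 to 12293 CPM in control libraries, 2575 to 3982 in the acute phase, 8576 to 8822 in remission and 8246 to 8443 in the chronic phase, with 0 of the 14 at 0 in any group. The 14 genes listed for monocytes and recruited macrophages summed to 8.53 to 42.3 CPM in control libraries, 1499 to 2262 in the acute phase, 8.23 to 25.3 in remission and 10.6 to 29.3 in the chronic phase. Ly6c2, Chil3, Ear2, Ace and Treml4 of that list were among the genes at 0 in control libraries, and Ear2 was also at 0 in remission and in the chronic phase. The 9 border macrophage genes summed to 2.63 to 4.55, 165 to 257, 13.3 to 18.2 and 20.9 to 50.5 CPM in the same order of groups, with Lyve1 at 0 in every group. Genes of some further cell types were also raised over control in acute libraries: 12 neutrophil genes summed to 125 to 432 CPM against 0.350 to 0.647 in control, 10 oligodendrocyte genes to 454 to 593 against 88.5 to 111, and 10 T and NK cell genes to 61.7 to 99.1 against 22.7 to 36.4 in control and 5.58 to 8.86 in remission. The oligodendrocyte sum was higher still in remission replicate 1, at 717 CPM. The 8 dendritic cell genes went the other way, at 48.2 to 57.3 CPM in acute and 192 to 220 in control. In bulk RNA, more cells of a type and more RNA per cell cannot be told apart, and the part of these other cells in the results below was not tested.

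The stretches of DNA just upstream of the start of Spp1, Gpnmb and Hpse are shown because these genes, low or absent in controls, had different phase profiles. They are 250 bases long, come from RefSeq on GRCm38.p6, and read 5′ to 3′ on the strand of the gene. Capitals mark a PU.1 core (GAGGAAG), a motif of the macrophage transcription factor PU.1.
Spp1 (chr5:104434861-104435110, plus strand): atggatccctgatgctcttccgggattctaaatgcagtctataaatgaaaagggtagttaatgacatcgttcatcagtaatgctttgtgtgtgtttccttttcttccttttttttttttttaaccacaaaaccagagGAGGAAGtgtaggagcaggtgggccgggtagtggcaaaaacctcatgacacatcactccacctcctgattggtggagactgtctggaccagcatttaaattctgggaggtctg
Gpnmb (chr6:49036268-49036517, plus strand): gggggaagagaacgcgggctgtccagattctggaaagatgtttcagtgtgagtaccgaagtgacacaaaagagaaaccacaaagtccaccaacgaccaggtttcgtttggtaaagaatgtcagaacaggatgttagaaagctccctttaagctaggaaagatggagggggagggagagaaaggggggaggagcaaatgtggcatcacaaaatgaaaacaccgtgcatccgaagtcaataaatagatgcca
Hpse (chr5:100719717-100719966, minus strand): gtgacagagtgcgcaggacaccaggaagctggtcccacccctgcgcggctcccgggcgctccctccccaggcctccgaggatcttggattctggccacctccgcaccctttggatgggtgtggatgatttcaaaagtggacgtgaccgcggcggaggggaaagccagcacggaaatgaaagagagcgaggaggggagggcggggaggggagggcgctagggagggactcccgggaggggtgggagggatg

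The same window of 250 bases was searched on both strands for 5 motifs in all 5 genes, and in 32851 RefSeq promoters as a background. The PU.1 core was found in Spp1, at -113 to -107 from the start, and in Igf1, at -60 to -54, and in 10.6% of all promoters. The AP-1 motif (TGANTCA) was found in Igf1 at -37 to -31, as TGAATCA, and in 6.75% of all promoters. No match to the E-box CACGTG (6.02% of all promoters), the M-box TCATGTG (3.25%) or the GAS element TTCNNNGAA (7.02%) was found in any of the 5 windows; E-box and M-box letters are those read by the MiT/TFE factors that act on Gpnmb in other cells. Such matches describe the letters in these windows and are not measured binding sites. All 250 bases of the Igf1 window lie in annotated exons of Igf1, so the Igf1 matches above are in annotated exon sequence. The Lgals3 window overlaps annotated exons of Lgals3 over 47 bases. The windows of Igf1 and Lgals3 are not printed, and a second RefSeq start of Spp1 lies further inside the gene.

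**Figure D1:**
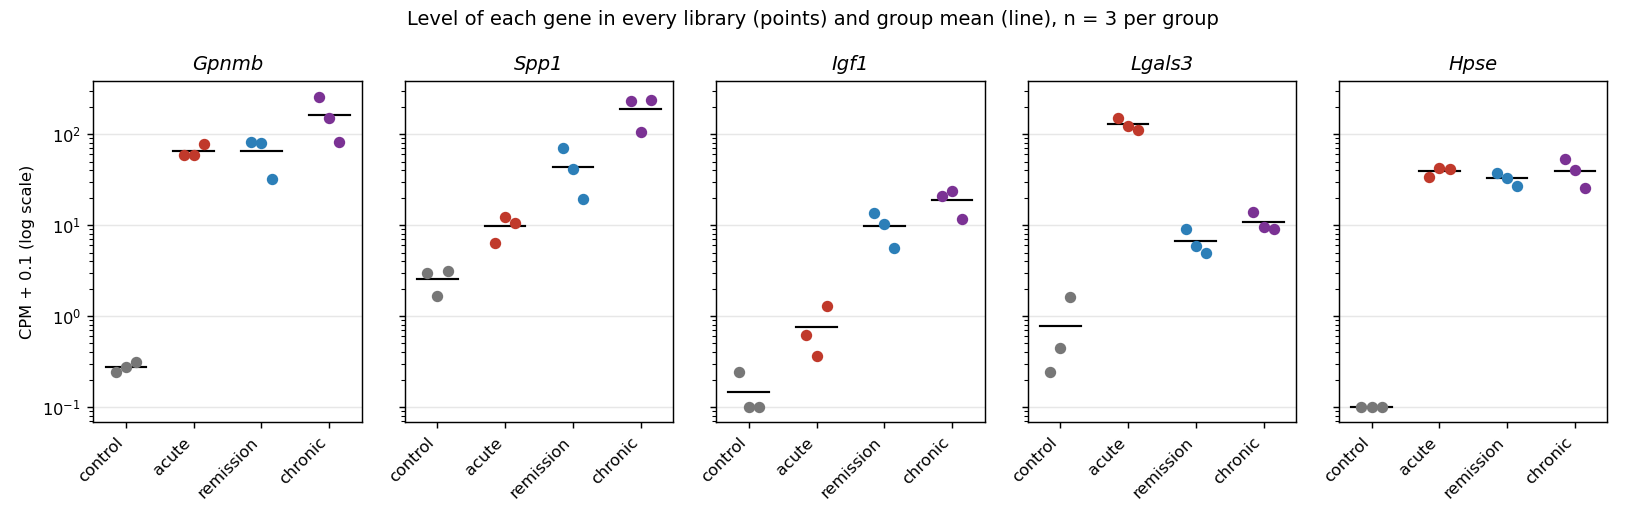
Level of each gene in each of the 12 libraries, as CPM plus 0.1 on a log axis. Points are libraries, in replicate order within a group, and the line is the group mean (n = 3). The acute libraries of Lgals3 (111.7 to 150.2 CPM) stand above all its others, those of Igf1 and Spp1 stand below remission and chronic libraries, and Hpse covers a similar range in the 3 disease groups.

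Igf1 (ENSMUSG00000020053) lies on chromosome 10 from 87858265 to 87937042 on the plus strand (GRCm38, GENCODE M21). It stood at 0.142, 0 and 0 CPM in the control mice and at 0.519, 0.266 and 1.19 CPM in the acute mice. In remission it stood at 13.5, 10.3 and 5.58 CPM, and in the chronic phase at 20.9, 23.8 and 11.5 CPM. Every remission and chronic library therefore lay above every acute one, while remission and chronic libraries overlapped.

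Of the 5 genes, Igf1 had the largest fitted increase after the acute phase. Igf1 had enough reads for a test only through the remission and chronic groups. Igf1 could therefore show little other than a rise after the acute phase. It rose by 3.90 ± 0.53 (log2 fold change ± SE, 95% interval 2.80 to 5.004) from the acute phase to remission, with an edgeR adjusted p of 9.02e-06. From acute to chronic the log2 fold change was 4.82 ± 0.50 (edgeR adjusted p 6.23e-07). The smallest fold that the interval for remission against acute allows is 6.98. Between remission and the chronic phase the log2 fold change was 0.92 ± 0.33 with an interval of 0.23 to 1.61, and the edgeR adjusted p was 0.174. Pooled over libraries, Igf1 was 11.1 times its control level in the acute phase, with a counting interval of 1.42 to 499, 178 times (31.5 to 7094) in remission and 337 times (59.9 to 13346) in the chronic phase. These intervals rest on the single control read and cover counting error only. Igf1os, an antisense gene overlapping Igf1, had 12 reads in all libraries together, and the library kit keeps no strand, so reads of this pair cannot be separated.

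Spp1 (ENSMUSG00000029304), on chromosome 5 from 104435118 to 104441050 on the plus strand, stood at 2.84, 1.58 and 3.02 CPM in control and at 6.23, 12.3 and 10.4 CPM in acute mice. It reached 70.5, 40.9 and 19.1 CPM in remission and 234.0, 105.5 and 236.2 CPM in the chronic phase. The 4 groups did not overlap for this gene, and they stood in the order control, acute, remission, chronic. Pooled ratios to control were 3.86 (counting interval 2.68 to 5.64) in the acute phase, 18.7 (13.8 to 26.1) in remission and 74.0 (54.8 to 102.5) in the chronic phase.

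Between phases, Spp1 rose by 2.20 ± 0.56 from acute to remission (interval 0.92 to 3.48, edgeR adjusted p 0.0143). This call ended without acute replicate 1, where the log2 fold change was 1.96 and the edgeR adjusted p 0.0637. The rise from acute to chronic was 4.32 ± 0.56 (interval 3.05 to 5.59, edgeR adjusted p 0.000462). Chronic against remission had a log2 fold change of 2.12 ± 0.47 with an interval of 1.06 to 3.18, and did not pass in edgeR (adjusted p 0.0733). DESeq2 and limma-voom did call it, with adjusted values in the range 0.00544 to 0.309 over the 8 alternatives that keep all libraries. It also passed without chronic replicate 2, at 2.42 on the log2 scale (edgeR adjusted p 0.0316). Gm42793, a predicted gene on the same strand that overlaps Spp1, had 13 reads in all libraries together.

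Lgals3 (ENSMUSG00000050335), on chromosome 14 from 47367751 to 47386160 on the plus strand, had the opposite profile. It stood at 0.142, 0.350 and 1.51 CPM in control mice and at 150.2, 122.3 and 111.7 CPM in acute mice. In remission it stood at 9.04, 5.74 and 4.78 CPM, and in the chronic phase at 13.8, 9.54 and 8.93 CPM. The acute libraries lay far above every remission and chronic library, yet every remission and chronic library lay above every control library.

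The fall from acute to remission was -4.26 ± 0.27 on the log2 scale (interval -4.83 to -3.69, edgeR adjusted p 9.15e-09), which is 19.2-fold. From acute to chronic it was -3.57 ± 0.26 (interval -4.11 to -3.03, edgeR adjusted p 5.11e-08), which is 11.9-fold. Chronic against remission had a log2 fold change of 0.69 ± 0.30 (interval 0.05 to 1.33) and did not pass (edgeR adjusted p 0.273), and these groups overlapped. Against control, Lgals3 was 224 times as high in the acute phase (counting interval 121 to 468), 11.7 times (6.09 to 25.2) in remission and 18.6 times (9.86 to 39.7) in the chronic phase. The monocyte gene sum given above was highest in the same acute libraries, at 1499 CPM or more. In remission and chronic libraries that sum was 8.23 to 29.3 CPM, against 8.53 to 42.3 in control libraries. The border macrophage sum was 13.3 to 18.2 CPM in remission and 20.9 to 50.5 in chronic libraries, against 2.63 to 4.55 in control. Lgals3 stood above its control level in each remission and chronic library. The part of these cells in its level was not tested.

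Gpnmb (ENSMUSG00000029816), on chromosome 6 from 49036546 to 49070929 on the plus strand, had 1 read in each control library, or 0.142, 0.175 and 0.216 CPM. It stood at 59.1, 59.1 and 78.3 CPM in acute mice and at 83.1, 80.7 and 31.9 CPM in remission. In the chronic phase it stood at 259.9, 151.8 and 81.4 CPM, so that the chronic libraries lay above all acute ones but overlapped remission. The spread between mice was wide after the acute phase: the highest remission library was 2.61 times the lowest and the highest chronic library 3.19 times, against 1.32 times in the acute phase.

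For Gpnmb no contrast between phases passed in edgeR. Remission against acute had a log2 fold change of 0.01 ± 0.45, with an interval of -1.02 to 1.04 (edgeR adjusted p 0.991). Chronic against acute stood at 1.33 ± 0.45 (interval 0.31 to 2.35, edgeR adjusted p 0.0556) and chronic against remission at 1.32 ± 0.44 (interval 0.31 to 2.33, edgeR adjusted p 0.20). The first of these passed with DESeq2 (adjusted p 0.00269), with limma-voom (adjusted p 0.0045), and in edgeR without remission replicate 3 (adjusted p 0.0186) or chronic replicate 3 (adjusted p 0.0121). The second passed with DESeq2 (adjusted p 0.0191). Pooled ratios to control were 376 (counting interval 128 to 1830), 399 (136 to 1936) and 962 (329 to 4670) in acute, remission and chronic mice, over 3 control reads.

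Hpse (ENSMUSG00000035273), on chromosome 5 from 100679484 to 100719716 on the minus strand, had 0 reads in the 3 control libraries. It stood at 33.5, 42.1 and 41.8 CPM in acute mice, at 37.7, 32.9 and 27.1 CPM in remission, and at 53.6, 40.3 and 25.5 CPM in the chronic phase. All 9 disease libraries lay within 25.5 to 53.6 CPM and the 3 phases overlapped. Against the control floor, Hpse was at least 226-fold higher in the acute phase, at least 192-fold higher in remission and at least 234-fold higher in the chronic phase.

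No difference between phases passed for Hpse, and the intervals bound it more tightly than for the other genes. The log2 fold change was -0.26 ± 0.22 from acute to remission (interval -0.73 to 0.22, edgeR adjusted p 0.398), 0.03 ± 0.22 from acute to chronic (interval -0.44 to 0.50, edgeR adjusted p 0.937) and 0.29 ± 0.22 from remission to chronic (interval -0.18 to 0.76, edgeR adjusted p 0.586). The sign of the first turns with scaling by library totals (0.058), and the sign of the second turns with limma-voom (-0.046). In these same libraries the homeostatic microglia sum was lowest in the acute phase (2575 to 3982 CPM) and the monocyte sum highest. The Hpse levels of the phases overlapped, and the part of cell mixture in them was not tested.

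**Figure D2:**
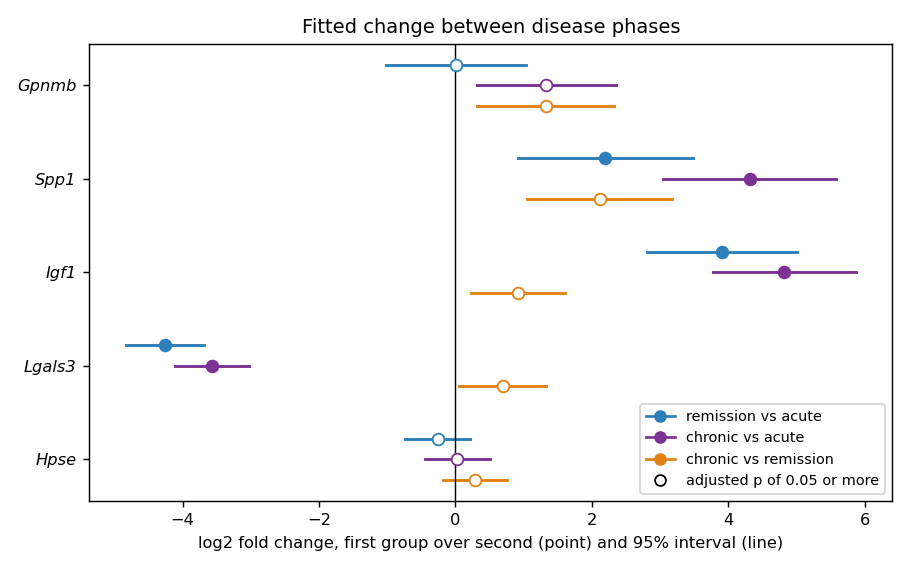
Fitted log2 fold change of each gene between disease phases, with its 95% interval, from the edgeR model of all 12 libraries (3 per group). Filled points passed at an adjusted p under 0.05. Igf1 and Spp1 lie to the right in remission against acute (3.90 and 2.20) and Lgals3 lies to the left (-4.26), while the intervals of Hpse span 0 in all 3 comparisons.

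Remission against acute called 2 of the 5 genes higher (Igf1 and Spp1) and 1 lower (Lgals3), where 36.9% of all tested genes were called, 17.6% higher and 19.4% lower. Chronic against acute gave the same count, 2 higher and 1 lower, where 28.8% of tested genes were called. Chronic against remission called 0 of the 5 genes in edgeR, where 1.2% of tested genes were called; 4 of the 5 had an unadjusted p under 0.05, as had 15.7% of all tested genes, DESeq2 called 2 and limma-voom called 1. Libraries did not overlap for 3 of the 5 genes in remission against acute (48.2% of tested genes), for 4 in chronic against acute (40.1%) and for 1, Spp1, in chronic against remission (17.8%). A test of any difference among the 3 disease groups called Lgals3 (edgeR adjusted p 2.40e-09), Igf1 (1.36e-06) and Spp1 (0.000655), and gave 0.0517 for Gpnmb and 0.517 for Hpse. The first 2 comparisons share the acute libraries, so their counts are not independent. Igf1 is in the higher count of each, although a rise was close to the only change it could show.

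The order of phase levels therefore differed from gene to gene. By mean level, Lgals3 stood in the order acute, chronic, remission, and the step from acute to the others passed, while chronic against remission (interval 0.05 to 1.33) missed the adjusted threshold. Igf1 and Spp1 stood in the order chronic, remission, acute, with chronic against remission above 0 in its interval for both genes but not passing after adjustment in edgeR. Gpnmb stood at 164.4 ± 89.9 CPM (SD, n = 3) in the chronic phase, 65.5 ± 11.0 in acute and 65.2 ± 28.9 in remission, and chronic against acute had an interval above 0 (0.31 to 2.35) but missed the adjusted threshold in edgeR. Hpse stood at 39.8 ± 14.04 CPM in the chronic phase, 39.1 ± 4.90 in acute and 32.6 ± 5.29 in remission, with intervals that span 0 for each pair of phases.

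Compared per length of annotated exons, the leading gene of the 5 changed with the phase. Mean levels in the acute phase were 68.9 CPM per kilobase for Lgals3, 11.1 for Hpse, 10.1 for Gpnmb, 5.84 for Spp1 and 0.0663 for Igf1. In remission Spp1 led with 26.4 CPM per kilobase, before Gpnmb with 10.01, Hpse with 9.26, Lgals3 with 3.51 and Igf1 with 0.989. In the chronic phase Spp1 stood at 116 CPM per kilobase, Gpnmb at 25.2, Hpse at 11.3, Lgals3 at 5.80 and Igf1 at 1.89. Igf1 was the lowest of the 5 in each phase on this scale, although its fitted increase after the acute phase was the largest. Exon length here joins all annotated transcripts of a gene, and is 9904 bases for Igf1 against 1648 to 6514 for the others.

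A comparison within each library does not depend on how libraries are scaled. The log2 ratio of the Igf1 count to the Lgals3 count was -7.86, -8.26 and -6.39 in the acute libraries and 0.57, 0.84 and 0.22 in the remission libraries. The ratio of Spp1 to Lgals3 was -4.56, -3.30 and -3.41 in acute and 2.95, 2.81 and 1.97 in remission. For both genes Lgals3 reads were in the majority in every acute library and in the minority in every remission library.

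The ratio of Gpnmb to Lgals3 moved from -1.34, -1.05 and -0.51 in acute to 3.19, 3.79 and 2.70 in remission libraries. That of Hpse moved from -2.16, -1.54 and -1.42 to 2.05, 2.50 and 2.47. The mean ratio rose by 8.04 for Igf1, 6.34 for Spp1, 4.19 for Gpnmb and 4.04 for Hpse, with an exact two-sided permutation p of 0.1 for each, the smallest that 3 against 3 libraries allow. Since Lgals3 was itself chosen as a member and fell strongly, these ratios describe how unequally the genes moved and do not show which of a pair moved.

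**Figure D3:**
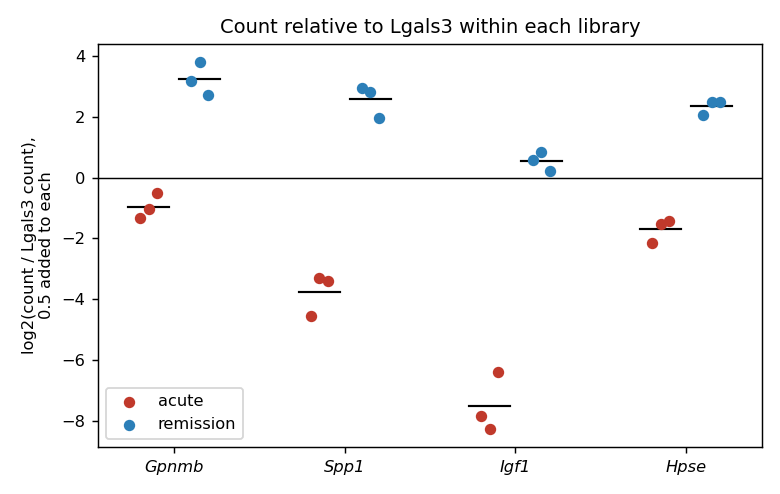
Log2 ratio of the read count of each gene to that of Lgals3 within the same library, after adding 0.5 to each count, in the 3 acute and 3 remission libraries. Points are libraries and lines are means. All ratios are below 0 in acute and above 0 in remission, and the gap is widest for Igf1, from a mean of -7.50 to 0.54.

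Within remission, the library with the lowest level was the same for all 5 genes: replicate 3. Within the chronic phase, replicate 3 was lowest for 4 genes, and for Spp1 it was replicate 2. Remission replicate 3 also had the fewest counts of all libraries (3992885 in total) and the highest sum of immediate-early genes, which rise when cells are handled, at 990 CPM against 171 and 220 CPM in the other two. Remission replicate 1, the highest of its group for all 5 genes, had 717 CPM of oligodendrocyte genes against 75.0 and 144 CPM, and 62.0 CPM of neutrophil genes against 1.06 and 2.30 CPM. The part of these differences in the spread of the 5 genes was not tested. The share of all tested genes lowest or highest in these same libraries was not counted. Nothing about the 5 genes is therefore read from their shared lowest and highest libraries. Without remission replicate 3, remission against acute stood at 4.17 for Igf1, 2.54 for Spp1 and -4.10 for Lgals3 on the log2 scale, with edgeR adjusted p of 5.86e-06, 0.00209 and 1.36e-07, and at 0.33 for Gpnmb and -0.14 for Hpse (0.569 and 0.701).

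For each gene, the 3 genes most like it were taken by Pearson's r of log2(CPM + 1) over the 12 libraries, among 7336 tested genes of at least 10 CPM in their highest group; these r values describe shared group differences and carry no test. Lgals3 was most like Ralgds (r = 0.991), a regulator of Ral GTPases, Anxa2 (0.987), a calcium-dependent membrane-binding protein, and Sept9 (0.987), a septin of the cytoskeleton. Anxa2 stood at 0.962 ± 0.725 CPM in control mice, 51.7 ± 9.70 in the acute phase, 3.44 ± 0.23 in remission and 7.67 ± 1.53 in the chronic phase, close to the shape of Lgals3. Igf1 was most like Lama3 (0.967), a laminin chain, Etl4 (0.961) and Pdcd1 (0.956), the gene of the inhibitory receptor PD-1. Spp1 was most like Pdcd1 too (0.962), then Gusb (0.960), the lysosomal beta-glucuronidase, and Prune2 (0.958).

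Pdcd1 stood at 1.42 ± 0.336 CPM in control mice, 5.35 ± 1.78 in the acute phase, 15.5 ± 7.14 in remission and 25.7 ± 5.25 in the chronic phase, the same order as Spp1. Gpnmb was most like Rab7b (0.987), a GTPase of late endosomal traffic, Abcg1 (0.980), a sterol exporter, and Cd74 (0.978), the invariant chain of MHC class II. Rab7b stood at 0.626 ± 0.228, 6.53 ± 0.532, 6.62 ± 2.21 and 11.7 ± 4.14 CPM in control, acute, remission and chronic mice. Hpse was most like Cd74 (0.992), P2ry14 (0.990), a receptor for UDP-sugars, and H2-Q2 (0.989), an MHC class I family gene whose reads are uncertain because of near-identical copies. Among the members themselves, over the 9 disease libraries, Igf1 and Spp1 had r = 0.889, whereas Igf1 and Lgals3 had r = -0.862. By ranks (Spearman) the values were 0.833 and -0.417, so the second was weaker by ranks. These points share libraries and group differences.

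The receptors and binding proteins of Igf1 did not move as a block. Of 17 genes of the insulin-like growth factor system, 6 had enough reads to be tested; 2 were higher and 2 lower in remission than in acute mice, 3 higher and 2 lower in chronic than in acute, and 0 passed between chronic and remission in edgeR, DESeq2 or limma-voom, with 1 at an unadjusted edgeR p under 0.05. Over the 20 alternatives the higher counts ranged from 1 to 4 in both comparisons, and the lower counts from 1 to 2 and from 1 to 5. For remission, 1 was higher without acute replicate 1, acute replicate 2 or remission replicate 2, and 1 was lower without acute replicate 1 or remission replicate 1 or 3. In chronic against acute, 1 was higher without acute replicate 1 or with only the compared groups. Igfbp5, 1 of the 3 higher there, had most of its reads in the chronic phase (6.81 ± 5.68 CPM, against 0.274 in acute). A rise was therefore close to the only change it could show. The median log2 fold change of the 6 was 0.47 in remission against acute and 0.39 in chronic against acute, beside -0.01 and 0.00 over all tested genes. Over all tested genes, 17.6% were higher and 19.4% lower in remission than in acute, and 13.3% and 15.5% in chronic than in acute. In chronic against remission, 15.7% of all tested genes had an unadjusted edgeR p under 0.05. Igf1r, the receptor of IGF1, stood at 39.5 ± 4.70 CPM in control, 45.9 ± 8.06 in the acute phase, 32.5 ± 2.87 in remission and 28.1 ± 3.602 in the chronic phase, and was lower in chronic than in acute (log2 fold change -0.70 ± 0.16, edgeR adjusted p 0.00248), a call that ended with library totals (-0.50, adjusted p 0.0509). Igf2r, the mannose 6-phosphate receptor that clears IGF2, stood at 2.33 ± 0.825 CPM in control and peaked at 69.6 ± 11.3 in acute mice before 13.8 ± 0.828 and 11.6 ± 1.51, with -2.59 ± 0.19 in chronic against acute (edgeR adjusted p 6.26e-09). Igfbp4, a binding protein that holds IGF back from its receptor, rose from 3.14 ± 0.95 CPM in acute to 10.1 ± 2.74 in remission (1.66 ± 0.30, edgeR adjusted p 0.000187), still below the 22.8 ± 1.39 of control.

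Spp1 has integrins and CD44 as receptors, and 8 of 13 genes of that list were tested. The shares over all tested genes were 17.6% higher and 19.4% lower in remission against acute, and 13.3% and 15.5% in chronic against acute. In remission against acute 3 were higher (Itgb3, Itgb5 and Itga9) and 4 lower (Cd44, Itgb1, Itga4 and Itga5), with a median of -0.11; in chronic against acute 4 were higher and 2 lower, with a median of 0.16. Between chronic and remission 0 passed in edgeR (3 at an unadjusted p under 0.05), 1 in DESeq2 and 0 in limma-voom. Of all tested genes, 15.7% had an unadjusted edgeR p under 0.05 in that comparison. Itgb3, the beta chain of the vitronectin receptor, stood at 53.5 ± 2.64 CPM in control mice, 7.14 ± 1.25 in the acute phase, 35.1 ± 5.13 in remission and 52.5 ± 5.22 in the chronic phase (chronic against acute 2.88 ± 0.18, edgeR adjusted p 5.57e-10). Itgb5 followed, with 866 ± 39.8 CPM in control, 250.1 ± 79.9 in acute and 878 ± 7.85 in remission (1.81 ± 0.18, edgeR adjusted p 2.17e-07). Itga4, a chain of the integrin that brings leukocytes into the nervous system, went the other way, from 14.3 ± 2.41 CPM in control to 108 ± 29.8 in acute and 11.5 ± 4.98 in remission (-3.28 ± 0.29, edgeR adjusted p 1.64e-06). These integrin genes moved with the homeostatic microglia and monocyte sums given above, and the part of cell mixture was not tested.

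Among the other galectins and galectin-3 ligands, 5 of 9 genes were tested. The shares over all tested genes were 17.6% higher and 19.4% lower in remission against acute, and 13.3% and 15.5% in chronic against acute. In remission against acute 1 was higher (Mertk) and 3 lower (Lgals1, Lgals9 and Lgals3bp), with a median of -0.60; the lower count ranged from 1 to 4 over the 20 alternatives. In chronic against acute Mertk was higher and 0 passed as lower in edgeR, against 1 lower in DESeq2 and 1 in limma-voom and up to 2 over the alternatives (2 without chronic replicate 1), with a median of -0.31. Between chronic and remission 0 passed in edgeR, DESeq2 or limma-voom, with 2 at an unadjusted edgeR p under 0.05, as had 15.7% of all tested genes. Lgals1, encoding galectin-1, stood at 0.702 ± 0.528 CPM in control mice, 5.26 ± 1.59 in the acute phase, 0.937 ± 0.646 in remission and 3.84 ± 2.05 in the chronic phase, and fell by 2.49 ± 0.63 on the log2 scale from acute to remission (edgeR adjusted p 0.0038). Lgals1 had enough reads for a test mainly through the acute group, with fewer in the chronic phase. A fall from acute to remission was close to the only change it could show there. The count of 3 lower genes and the median include it. Mertk, a receptor for the uptake of dying cells, stood at 323 ± 12.3 CPM in control, fell to 163 ± 19.5 in acute (-0.99 ± 0.15, edgeR adjusted p 2.52e-05) and rose to 377 ± 74.4 in remission (1.21 ± 0.15, edgeR adjusted p 4.18e-06). Remission against control did not pass for Mertk (0.22 ± 0.15, edgeR adjusted p 0.432), and the homeostatic microglia sum was also lowest in the acute libraries. Lgals3bp, a secreted ligand of galectin-3, and Lgals9 fell by less, at -0.60 ± 0.18 and -0.64 ± 0.17 (edgeR adjusted p 0.0151 and 0.00614), and neither call held when libraries were scaled by their totals.

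Heparanase acts on heparan sulfate proteoglycans, and 6 of 13 core protein genes were tested. The shares over all tested genes were 17.6% higher and 19.4% lower in remission against acute, and 13.3% and 15.5% in chronic against acute. In remission against acute 4 were lower (Sdc1, Sdc3, Sdc4 and Gpc1) and 1 higher (Gpc2), with a median of -1.94. Sdc1 stood at 0, 11.7, 0.123 and 0.0600 CPM in control, acute, remission and chronic mice, and Gpc1 at 0.153, 18.1, 2.15 and 1.66. Both had enough reads for a test mainly through the acute group. A fall after it was close to the only change they could show, and the counts and medians here include them. In chronic against acute 4 were lower (Sdc1, Sdc4, Gpc1 and Agrn) and 1 higher, with a median of -2.05 (0 higher without acute replicate 1 or chronic replicate 2), and in chronic against remission 1 was higher, Sdc3. Of all tested genes, 0.941% were higher in chronic than in remission. The syndecan Sdc4 stood at 2.50 ± 0.273 CPM in control mice, 66.9 ± 17.0 in the acute phase, 6.18 ± 1.68 in remission and 6.54 ± 2.39 in the chronic phase (remission against acute -3.43 ± 0.25, edgeR adjusted p 3.89e-09). Sdc3, in contrast, stood at 17.6 ± 5.74, 113 ± 16.6, 62.4 ± 4.77 and 125 ± 10.8 CPM, and was higher in chronic mice than in remission (1.01 ± 0.16, edgeR adjusted p 0.00531). Hpse itself stood between 25.5 and 53.6 CPM in these same libraries.

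Of 23 genes that build heparan sulfate, 15 were tested. In remission 1 was higher and 3 lower than in acute mice (median -0.12), beside 17.6% and 19.4% of all tested genes. In chronic mice 1 was higher and 1 lower than in acute (median 0.07), beside 13.3% and 15.5%. Nothing is read from these counts, which lie near or below those shares. The 3 lower genes became 1 with DESeq2, with library totals, with the title number as a covariate, or without any 1 of the control libraries, acute replicate 1 or 2, or remission replicate 1 or 3. The 1 higher gene in chronic against acute became 0 with the title number as a covariate, and without any 1 acute library or chronic replicate 1. It became 2 with library totals, with the most counted and mitochondrial features left out, and without chronic replicate 3 or remission replicate 2. Between chronic and remission 0 passed in edgeR, DESeq2 or limma-voom, with 3 at an unadjusted edgeR p under 0.05, as had 15.7% of all tested genes. Ndst1, which sets the first sulfate groups, stood at 29.4 ± 7.40 CPM in control, 64.5 ± 8.44 in acute and 25.6 ± 6.38 in chronic mice (-1.33 ± 0.19, edgeR adjusted p 2.13e-05). Of 9 tested of 11 genes that break down or edit the chain, 3 were higher and 1 lower in remission than in acute (median 0.09), 4 were higher and 1 lower in chronic than in acute (median 0.21), and 1 was higher in chronic than in remission. Of all tested genes, 0.941% were higher in chronic than in remission. Over the 20 alternatives the lower counts ranged from 0 to 3 and from 0 to 2. The count became 0 in remission with library totals, and without acute replicate 2 or remission replicate 3. In chronic it became 0 with library totals, with the title number as a covariate, and without acute replicate 1. Without chronic replicate 2 or 3, or with limma-voom, 2 were lower in remission. The gene higher in chronic than in remission was not called by limma-voom, with library totals or with only the compared groups. Nor was it called without chronic replicate 3, remission replicate 1 or remission replicate 3. That gene was Gusb, the lysosomal beta-glucuronidase already listed beside Spp1, which stood at 103 ± 11.4 CPM in control mice, 118 ± 15.7 in the acute phase, 142 ± 8.91 in remission and 223 ± 31.4 in the chronic phase (chronic against acute 0.92 ± 0.14, edgeR adjusted p 4.21e-05). Naglu, which removes the next sugar of the chain in lysosomes, stood at 43.3 ± 1.11 CPM in control, 53.3 ± 13.9 in acute and 100.3 ± 18.0 in chronic mice (0.92 ± 0.16, edgeR adjusted p 0.000244).

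Gpnmb is a target of the MiT/TFE transcription factors in melanocytes and macrophages, and 4 of 5 genes of that list, which also holds its paralog Pmel, were tested. The shares over all tested genes were 17.6% higher and 19.4% lower in remission against acute, and 13.3% and 15.5% in chronic against acute. In remission against acute, Mitf and Tfe3 were higher and Tfec was lower (median 0.45); in chronic against acute Tfe3 was higher and Tfec lower (median 0.16), and without acute replicate 1 the counts were 0 higher and 1 lower. Between chronic and remission 0 passed in edgeR, DESeq2 or limma-voom, with 2 at an unadjusted edgeR p under 0.05, as had 15.7% of all tested genes. Mitf stood at 22.7 ± 4.64 CPM in control mice, 27.8 ± 4.26 in the acute phase, 48.1 ± 6.55 in remission and 35.7 ± 6.17 in the chronic phase (remission against acute 0.79 ± 0.18, edgeR adjusted p 0.0019). Tfec, the macrophage member of the family, stood at 0.0948 ± 0.164 CPM in control, 8.21 ± 2.49 in acute and 0.152 ± 0.137 in remission (-5.62 ± 0.79, edgeR adjusted p 1.25e-05). It had enough reads for a test only through the acute group, so a fall after it was close to the only change it could show. Like Lgals3, Tfec was highest in the acute phase. In remission Tfec was near its control level, while Lgals3 stayed above its own. Gpnmb stood at 65.5 CPM in acute and 65.2 in remission, and the part of Tfec in its level was not tested.

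**Figure D4:**
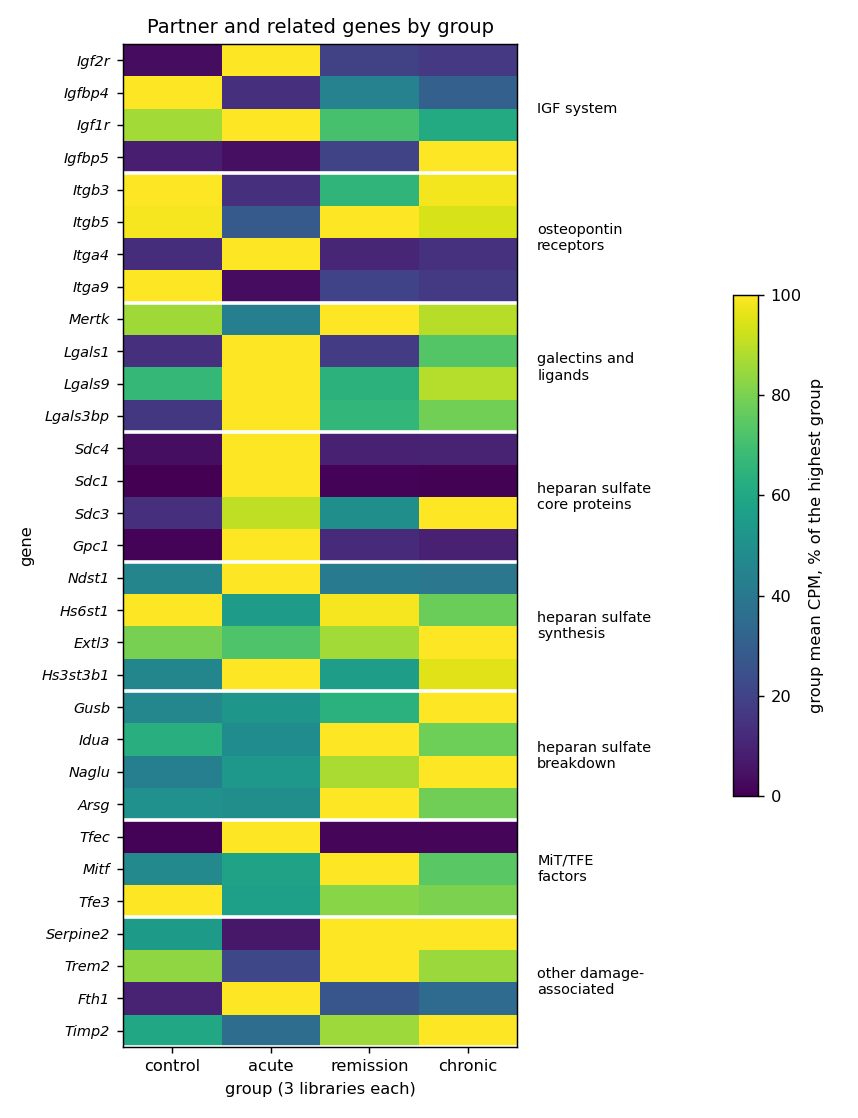
Group mean CPM of the partner and related genes named by rule, as a percentage of the group in which each is highest (3 libraries per group). Genes such as Igf2r, Sdc4, Itga4 and Tfec are brightest in the acute column, and Itgb3, Itgb5, Gusb and Trem2 are brightest outside it.

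Other genes of the damage-associated set moved in both directions. Of 38 other genes listed, 37 were found by symbol and 36 tested. In remission against acute 17 were higher and 10 lower (median 0.90), where 17.6% of all tested genes were higher and 19.4% lower. In chronic against acute 20 were higher and 9 lower (median 0.94), where 13.3% of all tested genes were higher and 15.5% lower. The medians over all tested genes were -0.01 and 0.00. Between chronic and remission 0 passed in edgeR, DESeq2 or limma-voom, with 10 at an unadjusted edgeR p under 0.05, as had 15.7% of all tested genes. Higher after the acute phase, as Igf1 and Spp1 were, stood Trem2, the lipid-sensing receptor of microglia, at 90.9 ± 26.8 CPM in acute and 420 ± 40.8 in remission (2.21 ± 0.18, edgeR adjusted p 4.35e-08). Serpine2, a protease inhibitor, stood at 40.1 ± 5.05 CPM in control, 4.83 ± 0.497 in acute and 73.7 ± 23.2 in chronic mice (3.93 ± 0.24, edgeR adjusted p 8.73e-10). Unlike Igf1 and Spp1, both Trem2 and Serpine2 were called lower in acute than in control mice. Trem2 was not called against control in remission or in the chronic phase. The homeostatic microglia sum was also lowest in the acute libraries, and the part of cell mixture was not tested. Lower after the acute phase, as Lgals3 was, stood Fth1, the ferritin heavy chain, at 731 ± 125 CPM in acute and 196 ± 37.0 in remission (-1.90 ± 0.18, edgeR adjusted p 2.59e-07). Unlike the 5 genes, Trem2 and Fth1 were well detected in control mice, at 350 ± 26.8 and 68.6 ± 16.5 CPM.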

How the data were processed

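The deposited values are counts of reads per gene in 12 libraries of spinal cord microglia, 3 mice per group. Per the labels' protocols, RNA was reverse transcribed with random hexamers and libraries were made with Nextera XT, which keeps no strand, and run as single reads of 75 bp on one flow cell. Per the submitters' processing notes, HISAT2, SAMtools 1.3.1, Picard 2.6.4, HTSeq 0.6.1 and GRCm38 were used; counting settings and annotation release are not given in the sources used here. Symbols, exon lengths and coordinates came from GENCODE M21.

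Genes kept by filterByExpr (12545) were fitted as 4 groups in edgeR 4.0.16 (R 4.3.3) with TMM factors, robust quasi-likelihood tests and Benjamini-Hochberg adjustment over all of them; the fit was tested on simulated data. CPM use TMM-scaled library sizes, errors are SD over 3 mice or SE of the fit, and ratios to control pool the counts of a group, with exact 95% intervals for counting error only, since reads carried no molecular identifiers. Ratios within libraries had 0.5 added to each count and exact permutation tests. Replicate numbers follow the order of records and pair no mice. The members, the partner and marker lists and the tests were chosen with earlier results of these data known. Partners named are up to 4 per list with the smallest p among those passing between disease phases; values are printed for most of them and the heat map shows all. Alternatives were DESeq2 size factors, library totals, leaving out the 6 most counted and the mitochondrial features, DESeq2 1.42.0, limma 3.58.1 (voom with quality weights), no filter, only the compared groups, the number in the title as a covariate, and leaving out each library.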

Additional observations from a re-analysis of the deposited data

Results flagged for a closer look

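The 6 tests of a difference between disease phases listed here concern the same contrast with control: for 3 of the 5 genes the distance from control differed between phases. In remission against acute these were Igf1 (log2 difference 3.90), Spp1 (2.20) and Lgals3 (-4.26). In chronic against acute they were again Igf1 (4.82), Spp1 (4.32) and Lgals3 (-3.57). All 3 control libraries cancel from each of these differences, so they are the tests between phases given above and not further evidence. The opposite signs of Lgals3 and of Igf1 and Spp1 were present in every pair of acute and remission libraries.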

How the results depend on the processing

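The calls of Igf1 and Lgals3 in remission and in the chronic phase against acute, and of Spp1 in chronic against acute, kept their direction and passed in all 20 alternatives. For Igf1, a rise was close to the only change it could show. Igf1 ranged from 3.54 to 4.57 in remission against acute, and Lgals3 from -4.56 to -3.95. Spp1 in remission against acute ranged from 1.69 to 2.54 when a library was left out.

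Small differences turned sign. Gpnmb in remission against acute stood at -0.00203 with DESeq2 size factors, -0.00761 with DESeq2, -0.12 with limma-voom, and -0.17 to 0.33 without single libraries. Hpse in remission against acute stood at 0.058 with library totals, and in chronic against acute at -0.046 with limma-voom and -0.23 to 0.27 without single libraries. The cause was not tested.

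Some calls missed in the reported fit passed elsewhere, for causes that were not tested. Gpnmb in chronic against acute passed with DESeq2 (1.33) and limma-voom (1.21), and ranged from 0.85 to 1.66 without single libraries. In chronic against remission Gpnmb passed with DESeq2 (1.34), Spp1 with DESeq2 (2.14) and limma-voom (2.05), with 1.78 to 2.64 without single libraries, and Igf1 (0.93) and Lgals3 (0.70) with no filter on low counts. 

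The number of genes called in chronic against remission, 151, became 828 with no filter, 26 with the compared groups only, 357 with DESeq2, 54 with limma-voom, and 17 to 283 without single libraries (17 without remission replicate 3, 283 without remission replicate 2). Chronic against acute called 2402 in place of 3610 with the title number as a covariate. Against control, remission (1168) called 757 to 1312 without single libraries, and chronic (1848) called 3241 with library totals and 1216 to 1927 without single libraries. Library totals moved the median log2 fold change of all genes to 0.31 in remission against acute, to 0.19 in chronic against acute and to -0.13 in chronic against remission, and the share of called genes that were higher from 47.6 to 71.2%, 46.3 to 64.4% and 78.1 to 61.4%.

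Of 31 named partner results, 25 kept their call in every alternative; Lgals9, Lgals3bp, Hs3st3b1, Igf1r, Igfbp5 and Extl3 lost theirs in at least 1. No paired analysis was possible because replicate numbers follow the order of records and the labels pair no mice.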
